A study of Mus musculus with 3 samples.

Results

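Ccdc180, Eps8l1, Htatip2, Nectin2, Gm19951 and Gm42031 are 6 genes that earlier results of these data had shown near all or none between splenic B cells of lupus-prone B6.SLE123 mice and of C57BL/6 mice. They were chosen by name among the 32285 genes counted, and all 6 were found. The values that chose them are the B cell counts of the same 3 libraries, so those counts are given as a description and carry no test. The description all or none held for 5 of the 6 genes. Ccdc180, Eps8l1, Htatip2 and Gm19951 had UMIs (unique molecular identifiers, 1 per captured RNA molecule) in B cells of both C57BL/6 libraries and were at or near 0 in B6.SLE123. Nectin2 was counted in B6.SLE123 and was at or near 0 in both C57BL/6 libraries. Gm42031 was counted in all 3 libraries and differed in degree.

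Each of the 3 libraries pooled splenocytes of 2 conditions, with 3 mice in each condition, aged 12 to 14 weeks, after removal of T cells with CD3 microbeads. The C57BL/6 control library held male mice with a sham minipump and female mice. The C57BL/6 Ang II library held male mice given angiotensin II (Ang II) by minipump at 490 ug/kg/min for 2 weeks from 10 weeks of age, with placebo or with 2HOBA (2-hydroxybenzylamine, a scavenger of isolevuglandins). The B6.SLE123 library held mice given 2HOBA or placebo for 6 weeks from 7 weeks of age, which the study's methods describe as female. Hashtag antibodies marked 6 populations in each library, C0301 to C0306, but none is named for a condition or a mouse, so they are given as unassigned populations and the effect of 2HOBA was not analysed here. With 1 library per group there is no replicate check, and strain, sex, library and preparation cannot be told apart in a contrast of B6.SLE123 with either C57BL/6 library.

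B6.SLE123 mice are C57BL/6 mice that carry lupus susceptibility intervals of the NZM2410 strain, named Sle1, Sle2 and Sle3, on chromosomes 1, 4 and 7. Such congenic mice develop B cell activation and autoantibodies, and within an introduced interval every gene is present in the donor strain's form. Each gene is given below by cell class, to show whether its difference was present in every class that uses it or in B cells only.

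Of the 6 genes, 4 encode proteins. Nectin2 (CD112) is an adhesion molecule of the immunoglobulin superfamily and a ligand of the lymphocyte receptors CD226, TIGIT and PVRIG. Eps8l1 belongs to the EPS8 family of adaptors that link growth factor receptors to actin remodelling. Htatip2, also called TIP30, is a short-chain dehydrogenase-like protein described as a tumour suppressor. Ccdc180 encodes a coiled-coil protein. Gm19951 and Gm42031 are annotated as long intergenic noncoding RNAs.

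On GRCm38, Ccdc180 (ENSMUSG00000035539) spans chr4:45890303-45950774 on the plus strand. Eps8l1, Nectin2 and Htatip2 lie on chromosome 7, the chromosome of Sle3. Eps8l1 (ENSMUSG00000006154) spans chr7:4460674-4480487 on the plus strand, Nectin2 (ENSMUSG00000062300) chr7:19716644-19750483 on the minus strand and Htatip2 (ENSMUSG00000039745) chr7:49759115-49773975 on the plus strand. Gm19951 (ENSMUSG00000113136) spans chr12:99643093-99647221 on the plus strand and Gm42031 (ENSMUSG00000110386) chr8:85125872-85132289 on the minus strand, neither on a chromosome of an Sle interval. Whether a gene lies inside an introduced interval was not analysed here.

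For the 4 protein-coding genes, the 250 bases upstream of the RefSeq transcript start (GRCm38.p6, reference C57BL/6 sequence, written 5′ to 3′ on the gene's strand) are shown because these are the stretches that would be compared first with the other strain. The B6.SLE123 sequence was not analysed here. Capitals mark the motifs GGAAGT (an ETS core, the family of PU.1) and CCAAT, which do not overlap each other and were searched on both strands.
Ccdc180, chr4:45890053-45890302, plus strand: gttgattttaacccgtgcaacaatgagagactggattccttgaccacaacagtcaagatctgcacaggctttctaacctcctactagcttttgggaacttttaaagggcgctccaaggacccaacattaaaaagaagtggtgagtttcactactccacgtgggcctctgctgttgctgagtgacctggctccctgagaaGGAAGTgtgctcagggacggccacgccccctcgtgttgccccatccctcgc
Eps8l1, chr7:4460447-4460696, plus strand: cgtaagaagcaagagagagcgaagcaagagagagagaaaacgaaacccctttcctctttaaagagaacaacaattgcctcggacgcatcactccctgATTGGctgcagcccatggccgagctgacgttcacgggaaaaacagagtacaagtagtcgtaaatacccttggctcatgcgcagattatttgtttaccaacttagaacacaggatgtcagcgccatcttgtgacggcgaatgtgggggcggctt
Nectin2, chr7:19749574-19749823, minus strand: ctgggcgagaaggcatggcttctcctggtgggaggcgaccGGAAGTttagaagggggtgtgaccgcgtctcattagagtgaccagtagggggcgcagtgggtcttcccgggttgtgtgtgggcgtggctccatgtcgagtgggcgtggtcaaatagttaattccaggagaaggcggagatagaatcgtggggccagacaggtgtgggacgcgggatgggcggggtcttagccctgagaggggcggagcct
Htatip2, chr7:49758856-49759105, plus strand: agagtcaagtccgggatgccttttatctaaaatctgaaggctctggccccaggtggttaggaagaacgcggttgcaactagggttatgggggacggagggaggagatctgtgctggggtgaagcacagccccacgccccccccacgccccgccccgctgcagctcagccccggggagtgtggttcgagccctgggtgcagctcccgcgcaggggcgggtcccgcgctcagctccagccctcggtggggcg
GGAAGT was found in the Ccdc180 and Nectin2 windows and in 19.8% of all 32536 promoter windows of that length. CCAAT was found, as its reverse complement, in the Eps8l1 window and in 33.8% of all windows. The Htatip2 window held neither, while a second RefSeq start of Htatip2, not printed, held both. Further RefSeq starts of Eps8l1, not printed, held neither. RefSeq starts differ from the ends of the spans given above: the Nectin2 window lies inside its span, and the Eps8l1 window runs past its start. A match is only a match of letters.

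Filtering kept 15704 cells in the control library, 14030 in Ang II and 16733 in B6.SLE123, from 16062 to 20691 barcodes per library with a median of 1852 to 2842 UMIs. B cell-like cells were the largest class in each library, with 12668, 11272 and 13161 cells and 26391734, 34846214 and 31634946 UMIs, and the B markers Cd79a, Cd79b, Ms4a1, Pax5 and Cd22 were counted in each, from 204 to 3987 CPM, the UMIs of a gene per 1000000 UMIs of the same cells. At most 350 kept cells shared a barcode between any pair of libraries. B cell-like cells of B6.SLE123 fell mostly into 4 clusters that held few C57BL/6 cells, so the genes are given within both kinds of cluster below. All intervals are 95% intervals for counting error only, which does not cover differences between mice or libraries.

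Ccdc180, Eps8l1, Htatip2 and Gm19951 were counted in all 12 C57BL/6 hashtag populations and nearly nowhere in B6.SLE123 B cell-like cells. For Ccdc180 the control library gave 287 UMIs, Ang II 400 and B6.SLE123 1. Its level was 10.9 CPM (9.65 to 12.2), 11.5 CPM (10.4 to 12.7) and 0.0316 CPM (0.000800 to 0.176). By hashtag, Ccdc180 ranged from 9.42 CPM (median 10.8) to 12.9 CPM in the control library and from 8.74 CPM (median 10.7) to 14.7 CPM in the Ang II library, while 5 of the 6 B6.SLE123 populations had no UMI. The populations of the strains did not overlap, and the log2 ratio of B6.SLE123 to control was -8.43 (-13.7 to -5.94). The share of all genes whose populations separate in this way is not given. Nothing is therefore read from a lack of overlap here or below.

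Eps8l1 followed the same pattern, with 259 UMIs for control, 394 for Ang II and 1 for B6.SLE123. The Eps8l1 level was 9.81 CPM (8.65 to 11.1) and 11.3 CPM (10.2 to 12.5) in the C57BL/6 libraries. It varied more between populations than Ccdc180 did, from 4.96 CPM (median 9.75) to 13.2 CPM in the control library and from 4.24 CPM (median 10.99) to 19.3 CPM in the Ang II library. The lowest C57BL/6 population was still far above the highest B6.SLE123 population, at 0.186 CPM. The log2 ratio to control was -8.28 (-13.6 to -5.79). An antisense gene, Gm15494, overlaps Eps8l1 and shares 0.236% of its 50-base stretches, so a small part of these counts is uncertain.

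Htatip2 had no UMI in any of the 13161 B6.SLE123 B cell-like cells, against 335 UMIs for control and 472 for Ang II. Its level was 12.7 CPM (11.4 to 14.1) and 13.5 CPM (12.4 to 14.8) in the C57BL/6 libraries, and the interval for the count of 0 in B6.SLE123 reached 0.117 CPM. Control populations ranged from 9.92 CPM (median 11.3) to 16.1 CPM and Ang II populations from 11.9 CPM (median 13.3) to 15.2 CPM. With 3 UMIs standing in for the count of 0 in B6.SLE123, Htatip2 was 134-fold lower there than in control and 143-fold lower than in Ang II B cell-like cells. With counting error, the log2 ratios were at most -6.76 and -6.85.

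The noncoding RNA Gm19951 gave 1234 UMIs for control, 2547 for Ang II and 6 for B6.SLE123. These are levels of 46.8 CPM (44.2 to 49.4), 73.1 CPM (70.3 to 76.0) and 0.190 CPM (0.0696 to 0.413). Control populations ranged from 32.9 CPM (median 48.3) to 57.4 CPM, Ang II populations from 66.1 CPM (median 73.3) to 78.1 CPM, and B6.SLE123 populations from 0 to 0.541 CPM, with no UMI in 2 of the 6. The Gm19951 log2 ratio of B6.SLE123 to control was -7.95 (-9.39 to -6.82). Gm19951 also differed between the C57BL/6 libraries, whose populations did not overlap, by 1.56-fold.

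Nectin2 ran the other way. It had 146 UMIs for B6.SLE123, 1 for control and 0 for Ang II. The Nectin2 level in B6.SLE123 was 4.62 CPM (3.90 to 5.43). The UMIs came from 103 cells, 27 of which held 2 or more and 1 of which held 6. All 6 B6.SLE123 populations had Nectin2, at 1.51, 5.09, 10.8, 3.79, 3.67 and 2.80 CPM in the order C0301 to C0306, and the highest, C0303, held 58 of the UMIs in 38 cells. The spread among populations was thus wide, from 1.51 CPM to 10.8 CPM, and its lowest value was above the highest in C57BL/6, 0.354 CPM. The Nectin2 log2 ratio to control was 6.93 (4.43 to 12.2), and against Ang II it was at least 5.43. An antisense gene, Gm20512, overlaps Nectin2 and shares 2.61% of its 50-base stretches.

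Gm42031 was not near all or none. It gave 1150 UMIs for control, 5968 for Ang II and 9695 for B6.SLE123. The levels were 43.6 CPM (41.1 to 46.2), 171 CPM (167 to 176) and 306.5 CPM (300.4 to 312.6), so the Ang II library lay between the others. Populations ranged from 21.5 CPM (median 42.2) to 66.8 CPM in the control library, from 124.6 CPM (median 178.2) to 216.6 CPM in the Ang II library and from 252.7 CPM (median 308.0) to 352.6 CPM in B6.SLE123, with no overlap between libraries. B6.SLE123 was 7.03-fold above control and 1.79-fold above Ang II, and Ang II was 3.93-fold above control although both held C57BL/6 mice. Of the 50-base stretches of Gm42031, 59.0% also occur in transcripts of 16 other genes, among them Chd9 and Cnbd2, so its reads could be split or lost in counting and its counts are uncertain.

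**Figure D1:**
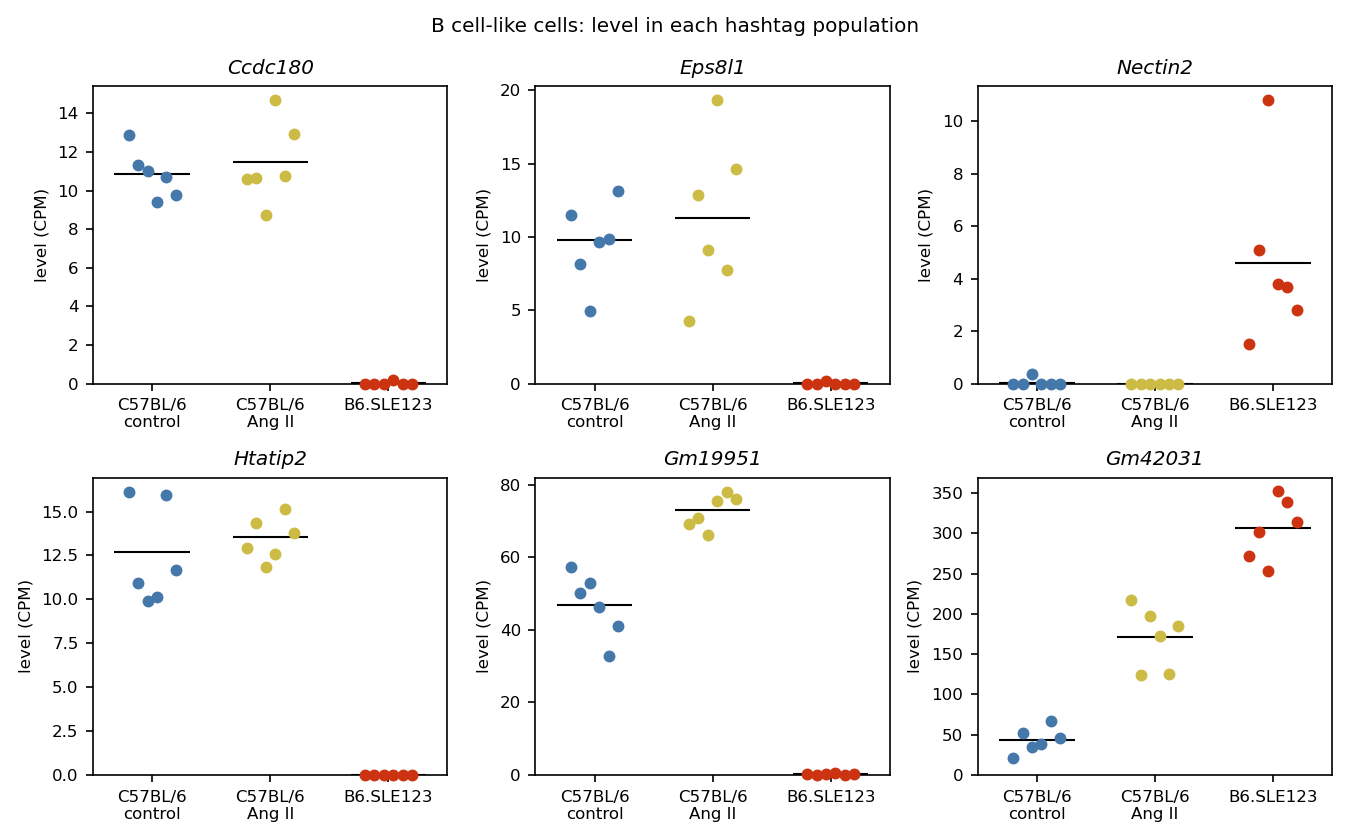
Level of each gene in B cell-like cells, in CPM on linear axes that start at 0. Each point is 1 of the 6 unassigned hashtag populations of a library and the line is the level of the whole library. Ccdc180, Eps8l1, Htatip2 and Gm19951 are at or near 0 in B6.SLE123, Nectin2 is at or near 0 in C57BL/6, and Gm42031 differs among the 3 libraries without overlap.

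Among the 11340 genes with at least 50 UMIs over the B6.SLE123 and control B cell-like cells, the median log2 ratio was -0.05 and 20 genes (0.176%) were lower by 8-fold or more, among them Ccdc180, Eps8l1, Htatip2 and Gm19951 and 4 Y-linked genes. Another 69 genes (0.608%) were higher by 8-fold or more, and Nectin2 was the only 1 of the 6 among them. The genes were chosen on this contrast, so nothing is read from these counts. Against the Ang II library, 22 of 11491 genes were lower (0.191%) and 107 higher (0.931%) by 8-fold or more, and the same 5 genes passed in the same directions. The log2 ratios to Ang II were -8.50 for Ccdc180, -8.48 for Eps8l1 and -8.59 for Gm19951, and the B6.SLE123 counts in the 2 contrasts are the same ones.

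Between the C57BL/6 libraries, 4 genes were lower (0.0355%) and 5 higher (0.0443%) in Ang II by 8-fold or more, and none of the 6 was among them. The log2 ratio of Ang II to control was 0.08 (-0.14 to 0.30) for Ccdc180, 0.20 (-0.03 to 0.44) for Eps8l1 and 0.09 (-0.11 to 0.30) for Htatip2. These intervals include 0. For Gm19951 it was 0.64 (0.55 to 0.74) and for Gm42031 1.97 (1.88 to 2.07). Every one of the 6 populations of the control library had the 4 genes that were at or near 0 in B6.SLE123. That library holds male and female mice, but no population is named for a sex, so an effect of sex was not tested.

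The same genes were then followed outside the B lineage, in cells that the choice of genes did not use. Summed over all named classes other than B and plasma cell-like cells, 23 of 10436 genes were lower (0.22%) and 52 higher (0.498%) in B6.SLE123 than in control by 8-fold or more. Ccdc180, Htatip2 and Gm19951 were among those lower and Gm42031 among those higher, while Eps8l1 and Nectin2 had fewer than the 50 UMIs needed. Ccdc180 gave 158 UMIs for control, 192 for Ang II and 18 for B6.SLE123, with a log2 ratio to control of -3.47 (-4.26 to -2.76). Eps8l1 gave 37, 52 and 0 UMIs, with a log2 ratio to control of at most -3.59. Htatip2 gave 143, 176 and 4 UMIs, with a log2 ratio of -5.50 (-7.39 to -4.11). Gm19951 gave 165, 223 and 15 UMIs, with a log2 ratio of -3.79 (-4.66 to -3.03). So the lower level was not limited to B cells for any of the 4. Against Ang II, where 0.669% of 10757 genes were lower and 0.493% higher by 8-fold or more, the log2 ratios were -3.24 for Ccdc180, -5.29 for Htatip2 and -3.72 for Gm19951, from the same B6.SLE123 counts.

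Some B cell RNA was present in these cells, since they held Cd79a, Cd79b and Ms4a1 at a summed 1463 CPM for control, 958 CPM for Ang II and 644 CPM for B6.SLE123. Carried over at the rate of those 3 markers, B cell RNA would give 14.995 of the 158 control UMIs of Ccdc180, 17.5 of the 143 of Htatip2, 13.5 of the 37 of Eps8l1 and 64.5 of the 165 of Gm19951. The measured counts were above these in each case, and the part of carry-over in the ratios was not tested otherwise. In cells with no UMI of any of the 3 B markers, a choice made after seeing the data, the control and B6.SLE123 counts were 115 and 16 for Ccdc180, 101 and 1 for Htatip2, 21 and 0 for Eps8l1 and 73 and 9 for Gm19951. Platelet-like cells held the same markers at a summed 5685 to 7030.4 CPM, near the level of B cell-like cells. Control B cell-like cells had 3987 CPM of Cd79a, 2001 CPM of Cd79b and 1176 CPM of Ms4a1. In control, platelet-like cells held 6418 of the 9879 marker UMIs outside the B lineage. Leaving platelet-like cells out, also chosen after seeing the data, gave log2 ratios of -3.54 for Ccdc180, -5.54 for Htatip2 and -3.51 for Gm19951.

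By class, Htatip2 was counted in every C57BL/6 class given here. The share of all genes lower by 8-fold or more was 0.071% in NK-like, 0.112% in neutrophil-like, 0.115% in monocyte/macrophage-like, 0.123% in pDC-like, 0.261% in plasma cell-like and 0% in cDC-like cells. NK is natural killer, and cDC and pDC are conventional and plasmacytoid dendritic cells. Clusters differed in their share of a class between libraries. Of the 332 red pulp macrophage-like cells of B6.SLE123, 224 were in cluster 26, led by C1qb, Fcgr4 and C1qc, which held 0 control cells and 1 Ang II cell. The other 108 were in cluster 27, led by Vcam1, Hmox1 and Fcna, beside 47 control and 64 Ang II cells. Cluster 27 was high for all 8 red pulp macrophage markers, but cluster 26 only for Spic, C1qa, C1qb and C1qc. The study named its C1q-expressing myeloid cells monocyte-related dendritic cells, so the class name is uncertain for cluster 26. Of the monocyte/macrophage-like cells, cluster 14, led by Ace, Ear2 and Fabp4, held 240 of 543 in control and 518 of 784 in B6.SLE123, and cluster 15, led by Fn1, F13a1 and Ccr2, held the others. In B6.SLE123 Htatip2 was at 0 in NK-like, neutrophil-like, plasma cell-like, cDC-like and pDC-like cells, against 39, 21, 8, 4 and 9 UMIs in control. Its control level was 36.9 CPM (15.9 to 72.7) in plasma cell-like, 31.4 CPM (22.4 to 43.0) in NK-like and 28.6 CPM (21.2 to 37.7) in monocyte/macrophage-like cells. It was 14.4 CPM (8.92 to 22.04) in neutrophil-like, 14.2 CPM (6.51 to 27.0) in pDC-like and 11.3 CPM (3.08 to 29.0) in cDC-like cells. Among these classes, only the NK-like and neutrophil-like intervals lay apart. The log2 ratio of Htatip2 in B6.SLE123 to control was at most -3.03 in NK-like, -3.17 in neutrophil-like and -4.57 in plasma cell-like cells. In monocyte/macrophage-like cells 1 UMI faced 50, a log2 ratio of -5.89 (-11.2 to -3.35). The remaining 3 of its 4 UMIs outside the B lineage lay in red pulp macrophage-like cells of cluster 27, where the control library had 2 and the Ang II library 4.

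Ccdc180 was highest in control neutrophil-like cells, at 65.2 CPM from 95 UMIs, above its 10.9 CPM in B cell-like cells. Neutrophil-like cells of B6.SLE123 held 4 UMIs, a log2 ratio of -5.36 (-7.26 to -3.95). By cluster, control and B6.SLE123 counts were 80 and 4 in cluster 12, led by Il1b and Csf3r, and 15 and 0 in cluster 16. Cluster 12 held 547 of the 668 control neutrophil-like cells and 369 of the 760 of B6.SLE123. The ratio of the whole class thus mixes clusters held in unlike shares. Monocyte/macrophage-like cells held 41 control UMIs and 7 in B6.SLE123, a log2 ratio of -2.80 (-4.20 to -1.63), and by cluster 16 against 3 in cluster 14 and 25 against 4 in cluster 15. In pDC-like cells the difference was not detectable at this depth, with 7 UMIs in control, 9 in Ang II and 5 in B6.SLE123 and a log2 ratio to control of -0.79 (-2.79 to 1.08). Of the 18 B6.SLE123 UMIs outside the B lineage, 16 thus lay in these 3 classes and the other 2 in erythroid-like cells. In plasma cell-like and cDC-like cells Ccdc180 had no UMI in any library.

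Eps8l1 had no UMI in any B6.SLE123 class other than B cells. The control library held 9 UMIs in NK-like and 11 in neutrophil-like cells, at 7.26 and 7.55 CPM. The log2 ratio of B6.SLE123 to control was at most -0.68 and -2.11 there. Monocyte/macrophage-like cells held 4 control UMIs, pDC-like 2 and cDC-like 1, so little or no difference was detectable at this depth. For Gm19951, monocyte/macrophage-like cells held 75 control, 77 Ang II and 9 B6.SLE123 UMIs, a log2 ratio to control of -3.31 (-4.49 to -2.30), and by cluster 46 control against 2 B6.SLE123 UMIs in cluster 14 and 29 against 7 in cluster 15. In neutrophil-like cells the Gm19951 counts were 20, 40 and 2, a log2 ratio of -4.11 (-7.25 to -2.07). By cluster, 18 control UMIs faced 0 of B6.SLE123 in cluster 12, and 2 faced 2 in cluster 16. Plasma cell-like cells had no Gm19951 in any library, and B6.SLE123 pDC-like cells none against 7 in control.

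Nectin2 UMIs were nearly all in B cell-like cells, which held 146 of the 154 in the B6.SLE123 library. Within that library its level was 4.62 CPM (3.90 to 5.43) in B cell-like cells and 0.939 CPM (0.405 to 1.85) outside the B lineage. The 8 UMIs outside faced 3 in control and 1 in Ang II, and the interval of the log2 ratio to control, 1.08 (-0.98 to 3.63), included 0. The interval to Ang II, 3.17 (0.27 to 8.64), lay above 0 and rests on the 1 Ang II UMI. Hashtag C0303, which has 1074 cells outside the B lineage against at most 499 in any other population, held 6 of the 8, and without it the ratio to control was -0.11. B cell RNA carried over at the rate of the B markers would give 3.98 of the 8, and in cells with no UMI of Cd79a, Cd79b or Ms4a1 there were 3 UMIs in B6.SLE123 and 3 in control. NK-like, plasma cell-like, cDC-like and pDC-like cells had no Nectin2 UMI in any library. In B6.SLE123, the intervals for 0 UMIs reached 3.67 CPM in NK-like, 1.22 CPM in plasma cell-like, 4.73 CPM in pDC-like and 5.39 CPM in cDC-like cells. A level like that of B cells was thus not detectable as different in pDC-like and cDC-like cells.

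Gm42031 was above control in B6.SLE123 with an interval above 0 in each class except T cell-like cells (2 and 4 UMIs). Carried over at the B marker rate, B cell RNA would give 264 of its 1462 B6.SLE123 UMIs outside the B lineage. In platelet-like cells it would give 57.3 in B6.SLE123 and 39.0 in control, where 51 and 31 were counted. In B6.SLE123 erythroid-like cells it would give 12.7 of 16. A difference apart from carry-over was not tested in those classes. In red pulp macrophage-like cells 134 of its 150 B6.SLE123 UMIs were in cluster 26, whose class name is uncertain. Cluster 27 held 16 against 0 in control and 5 in Ang II. The share of all genes higher by 8-fold or more was 0.213% in NK-like, 0.372% in neutrophil-like, 0.648% in monocyte/macrophage-like, 0.328% in cDC-like, 0.123% in pDC-like and 2.87% in plasma cell-like cells. The control and B6.SLE123 levels were 12.9 and 80.7 CPM in NK-like, 5.49 and 54.1 CPM in neutrophil-like, 26.9 and 227.8 CPM in monocyte/macrophage-like, 31.1 and 374 CPM in cDC-like and 28.5 and 365 CPM in pDC-like cells. The log2 ratios of Gm42031 in those classes ran from 2.64 (1.86 to 3.52) in NK-like to 3.68 (2.99 to 4.46) in pDC-like cells. The Ang II library lay between the other libraries in each of these 5 classes, and in NK-like cells it could not be told from B6.SLE123 (log2 ratio 0.33, -0.14 to 0.79).

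**Figure D2:**
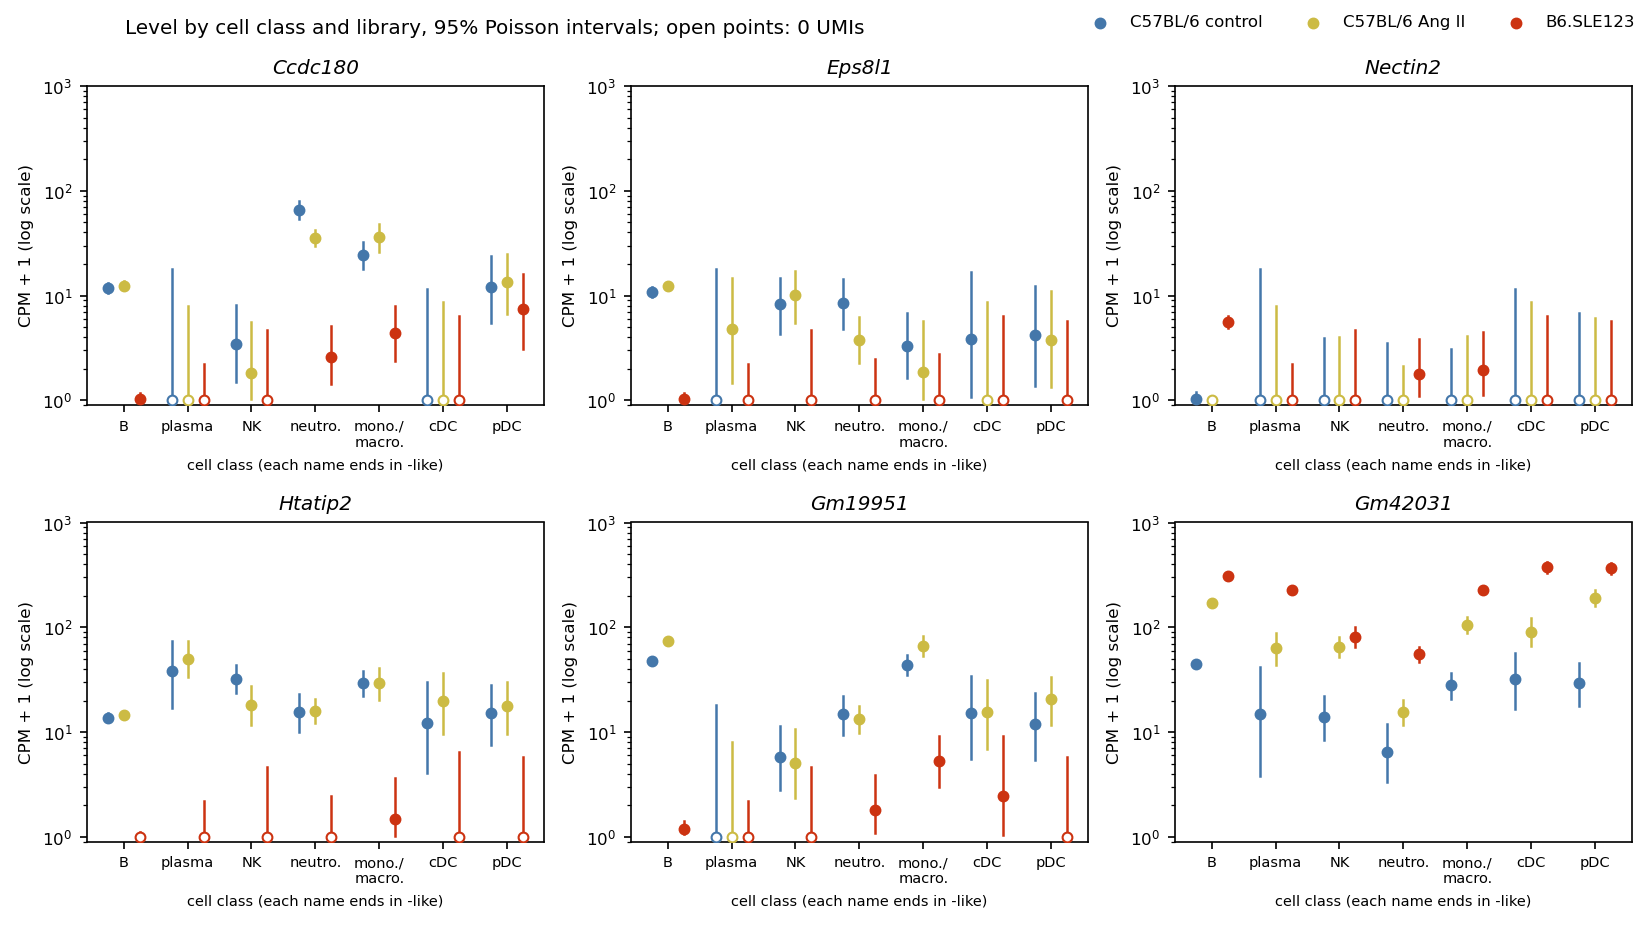
Level of each gene by cell class and library, as CPM + 1 on a log axis, with 95% Poisson intervals and open points for 0 UMIs. Htatip2 is at 0 in B6.SLE123 in 6 of the 7 classes drawn, Nectin2 in B6.SLE123 is at 4.62 CPM in B cell-like cells and below 1 CPM in the other classes drawn, and Gm42031 is highest in B6.SLE123 in each class.

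Within the B cell-like cells the pattern was present in both kinds of cluster. The 4 clusters made up mostly of B6.SLE123 cells held 374 control cells, and in these the genes were present, with 15 UMIs of Ccdc180, 7 of Eps8l1, 15 of Htatip2 and 46 of Gm19951. At the level of all control B cell-like cells, 13.9, 12.5, 16.2 and 59.7 UMIs would be counted there. Conversely, the 10 clusters made up mostly of C57BL/6 cells held 1477 B6.SLE123 cells, and these had 0 UMIs of Ccdc180, Eps8l1, Htatip2 and Gm19951, where the control level would give 28.7, 25.9, 33.6 and 123.6. Nectin2 was at 5.30 CPM (2.90 to 8.89) in those 1477 cells and at 4.55 CPM (3.81 to 5.40) in the B6.SLE123 cells of the other 4 clusters. Gm42031 was at 277.7 and 309.1 CPM in the same cells.

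Single clusters still differed in level within 1 strain. In B6.SLE123, Nectin2 was at 7.66 CPM (5.93 to 9.72) in cluster 6, which is led by Zbtb32, Fcrl5 and Ifitm genes, and at 4.002 CPM (3.02 to 5.20) in cluster 1, the main B cell-like cluster. It was at 0.970 CPM (0.315 to 2.26) in cluster 11, which is led by the germinal centre genes Mef2b and Rgs13 and the cycling genes Mki67 and Top2a. Gm42031 was the reverse, at 486.9 CPM (468.0 to 506.3) in cluster 11 and 264.6 CPM (256.2 to 273.3) in cluster 1. In control cells of cluster 9, which is led by the marginal zone genes Cr2, Cd1d1 and Dtx1, Ccdc180 was at 2.16 CPM (0.793 to 4.70) and Gm19951 at 9.72 CPM (6.41 to 14.1), below their levels in all control B cell-like cells, while Htatip2 at 15.8 CPM (11.5 to 21.3) and Eps8l1 at 10.4 CPM (6.99 to 14.99) were not. In Ang II cells of cluster 9, Ccdc180 at 3.89 CPM (2.22 to 6.31) and Gm19951 at 24.8 CPM (20.2 to 30.1) were also below their levels in all Ang II B cell-like cells, 11.5 and 73.1 CPM.

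**Figure D3:**
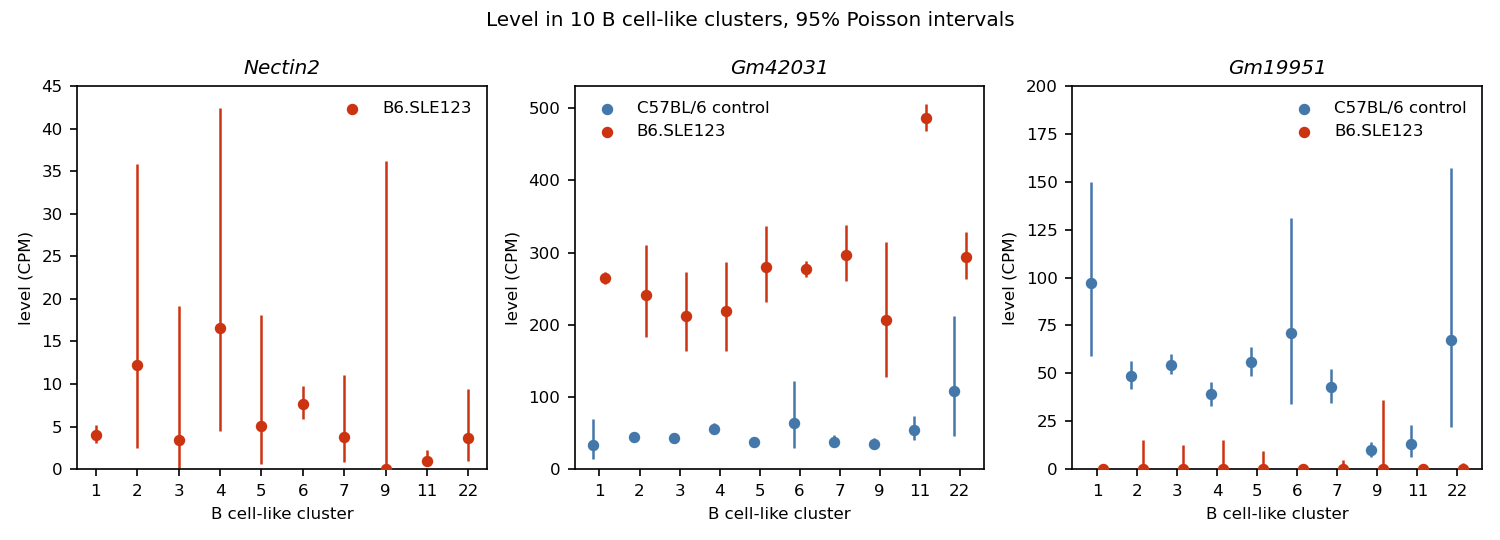
Levels in CPM of Nectin2, Gm42031 and Gm19951 in 10 B cell-like clusters, with 95% Poisson intervals, in B6.SLE123 cells and, for the last 2 genes, in control cells. In B6.SLE123 cells, Nectin2 is at 0.970 CPM and Gm42031 at 486.9 CPM in cluster 11, and Gm19951 is at or near 0 in all 10. Cluster 22 and others with few cells of a library have wide intervals.

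Among the 5 counted genes on each side of each gene, 60 in all, 49 were within 2-fold between B6.SLE123 and control B cell-like cells, 1 was lower and 0 higher by 8-fold or more, and the median log2 ratio was 0.03. The 49 are 81.7% of the neighbours, beside 92.7% of all 11340 genes within 2-fold. Of the 60, 9 lay past an absolute log2 ratio of 1.32, which 4.98% of all genes passed. All 10 neighbours of Ccdc180 and all 10 of Eps8l1 were within 2-fold, including Tdrd7, which starts 75.0 kb after the start of Ccdc180, at -0.75. The Eps8l1 neighbours reached only 199.8 kb after its start. Isoc2a lies beyond them at chr7:4877153-4896973, with 523 UMIs in control, 903 in Ang II and 31 in B6.SLE123 B cell-like cells. The neighbours thus do not describe the wider region. The 1 that passed was Gm16174, 99.9 kb after the start of Nectin2, with 71 UMIs in control and 8 in B6.SLE123 and a log2 ratio of -3.41 (-4.68 to -2.36), opposite in direction to Nectin2. Past 2-fold in the same direction as Nectin2 were Apoc2, 45.1 kb before its start, at 2.65 (1.41 to 4.17), and Cblc, 62.2 kb after it, at 1.29 (0.48 to 2.18). Within 2-fold, Ceacam16 at 0.94, Gm44659 at 0.89, Bcl3 at 0.46 and Tomm40 at 0.44 were also higher. Apoe at -0.70, Clptm1 at -0.31 and Relb at -0.05 were not. Beside Htatip2, 5 of 10 were within 2-fold, and its nearest neighbour Prmt3, 19.2 kb away, was at -0.01. Past 2-fold and lower, like Htatip2, were Gm32031 at -1.77 (-2.13 to -1.41) and Tmem86a at -1.43 (-2.04 to -0.85). Fancf at -1.55 (-1.97 to -1.15) and Svip at -1.65 (-2.52 to -0.83) were also lower. E2f8 was higher, at 2.15 (1.63 to 2.71). All of these lay farther from Htatip2 than Prmt3, and a shared cause was not tested.

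**Figure D4:**
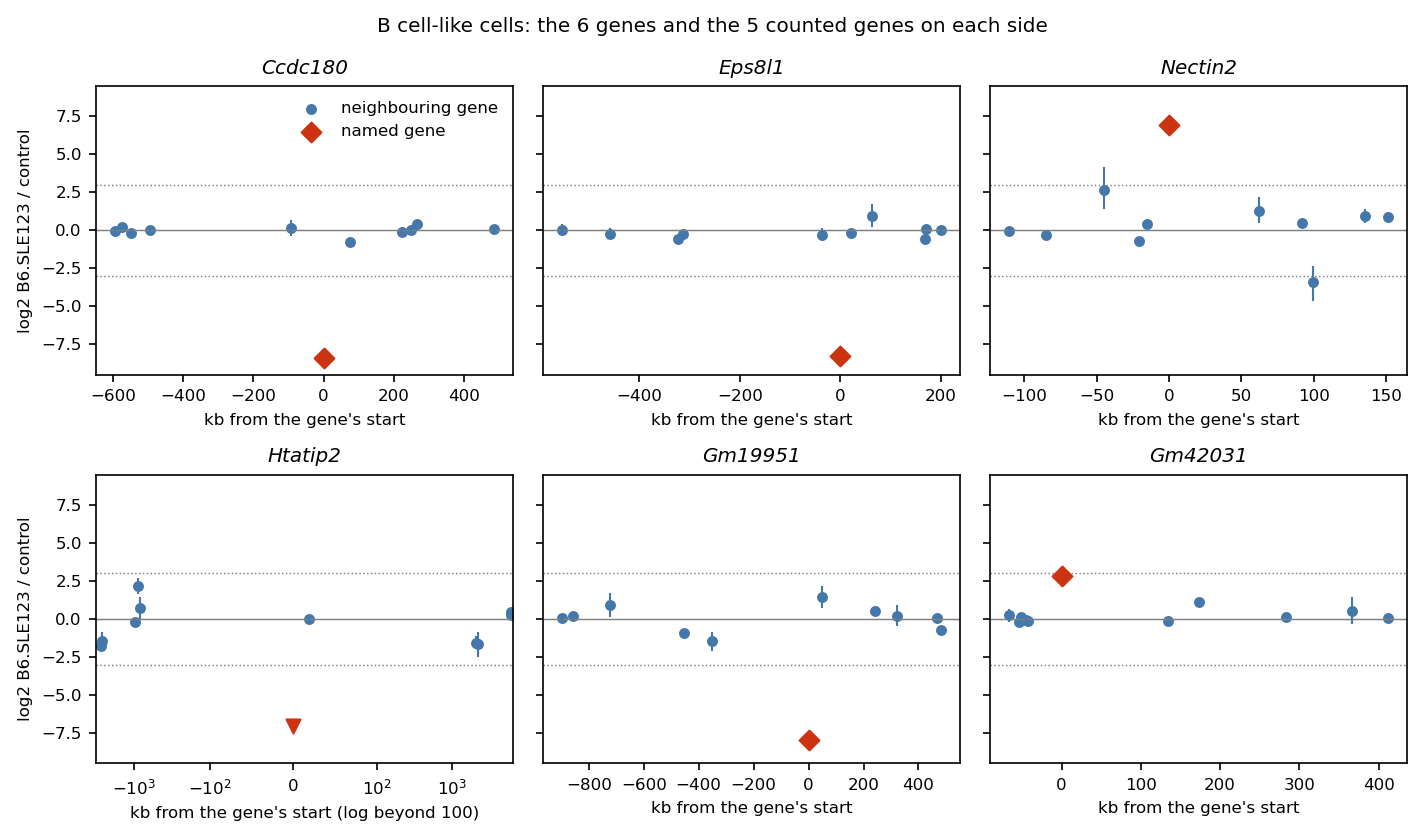
Log2 ratio of B6.SLE123 to control in B cell-like cells (red) for the 6 genes and (blue, with 95% intervals) for 5 counted neighbours on each side, against distance in kb. Dotted lines mark 8-fold, a downward triangle marks a bound, and only 1 neighbour, beside Nectin2, lies beyond a dotted line.

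The share of genes past 8-fold, in either direction, ranged from 0% to 2.38% over the autosomes, as a description with no test. On chromosome 7, where 3 of the 6 genes lie, 14 of 840 genes (1.67%) were past 8-fold, 7 lower and 7 higher. Chromosome 12, with Gm19951, had 12 of 505 (2.38%), of which 11 were higher, and chromosome 13 had 7 of 457 (1.53%). Immunoglobulin segment genes were not left out of these counts, and the genes past 8-fold on chromosome 12 are not named here. Chromosome 4, with Ccdc180, had 4 of 672 (0.595%) and chromosome 1 had 5 of 651 (0.768%), while chromosomes 14 and 17 had none.

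**Figure D5:**
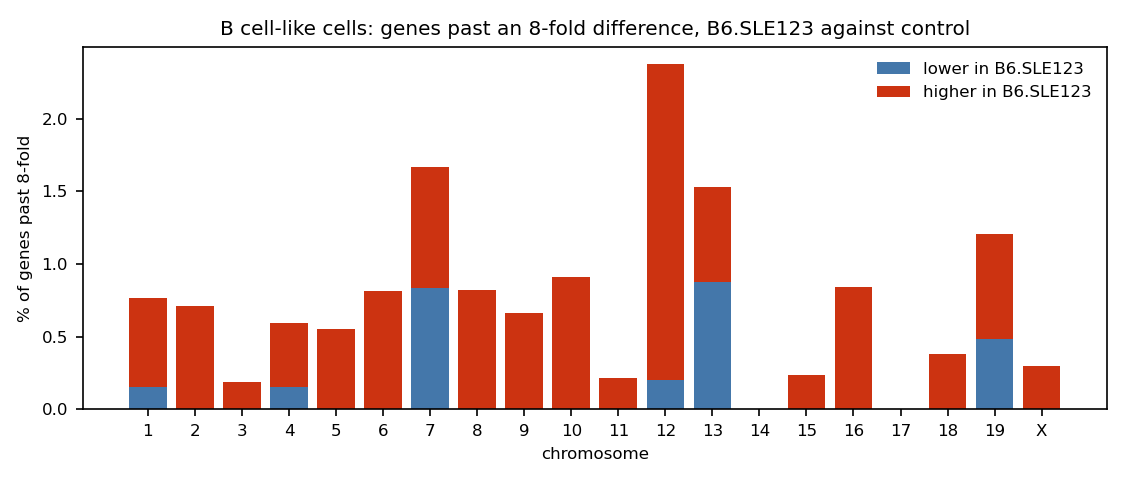
Share of genes past an 8-fold difference between B6.SLE123 and control B cell-like cells, in percent of the genes with at least 50 UMIs on each chromosome, split by direction. The Y chromosome, with 4 of 6 genes, is left out, and immunoglobulin segment genes are not. Chromosomes 12, 7 and 13 have the highest shares of those drawn, at 2.38%, 1.67% and 1.53%.

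Relatives and partners of the protein-coding genes were read from a list of 14 genes of the nectin and EPS8 families. Of these, 6 had the 50 UMIs needed for a ratio, 0 passed 8-fold in either direction, and the median log2 ratio of B6.SLE123 to control was 0.09. Nectin1, another nectin, was at 0.13 (-0.57 to 0.84) and Pvr, the poliovirus receptor homologue that shares receptors with Nectin2, at 0.20 (-0.24 to 0.65). Afdn, which encodes the actin-binding partner of nectins, was the highest at 1.80 (1.19 to 2.47), with 27 UMIs in control and 113 in B6.SLE123. Eps8 was the lowest at -1.01 (-1.33 to -0.69), and its partners Abi1 and Sos1 were at 0.02 and 0.05. Among the receptors of Nectin2, Tigit had 1 UMI in control, 6 in Ang II and 27 in B6.SLE123 B cell-like cells, Cd226 had 2, 3 and 5, and Pvrig had 0, 1 and 0.

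Some genes followed the 6 over cell classes and libraries. The measure was Pearson's r of log2(CPM + 1) over 36 points, 12 classes in 3 libraries, which share libraries and depth, so r is a description. Hist1h4m, a histone H4 gene on chromosome 13, was nearest to Htatip2 (r = 0.90) and to Eps8l1 (r = 0.68), with 342 UMIs for control, 642 for Ang II and 4 for B6.SLE123 in B cell-like cells. Isoc2a, an isochorismatase domain gene on chromosome 7, was the next nearest to Htatip2 (r = 0.78), with 523, 903 and 31 UMIs, and Vmn2r97 the next to Eps8l1 (r = 0.67). Myof, which encodes the membrane repair protein myoferlin, on chromosome 19, was nearest to Gm19951 (r = 0.71), with 827, 941 and 12 UMIs, followed by Gm31597 on chromosome 7 (r = 0.70) with 228, 218 and 0. Gm4673 was nearest to Ccdc180 (r = 0.73), with 101 UMIs in control and 119 in B6.SLE123 B cell-like cells. For Nectin2, r was 0.68 with the haemoglobin gene Hbb-bs, and for Gm42031 the nearest were Txndc12 and Borcs8 (r = 0.69 for both).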

How the data were processed

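Single-cell RNA was measured in 3 libraries of mouse splenocytes. The deposited values are raw, unnormalized counts of UMIs for each gene and hashtag per barcode, obtained by the authors from Cell Ranger 6.0.0 (build mm10, per the submitters' processing notes). Barcodes with over 200 and under 3500 genes and under 15% mitochondrial UMIs were kept, and those positive for several hashtags were removed (13.5% in control, 11.3% in Ang II, 17.9% in B6.SLE123). Doublets within 1 hashtag could not be seen. Counts scaled to 10000 per cell were log transformed (pseudocount 1) and clustered without the 6 genes (scanpy 1.11.5, 2000 variable genes, 30 principal components, 20 neighbours, Leiden resolution 0.8). The 31 clusters were named from marker lists, and names end in "-like" for that reason. A cluster of 485 cells led by Car2 that held the B markers stayed unnamed and entered neither B cells nor other classes.

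Counts were summed per library and class and scaled to CPM by the summed UMIs. Levels carry exact Poisson intervals and ratios exact conditional intervals (95%), tested on simulated data. A count of 0 was set to 3 UMIs for a bound that leaves out the counting error of the other count, and ratios over all genes needed 50 UMIs. With 1 library per group no test was made. Positions are those of GENCODE vM21 (GRCm38), matched by Ensembl identifier for 32235 of 32285 genes, and upstream sequences are from RefSeq. Members and gene lists were chosen with earlier results of these data known. Named beside the 6 genes are neighbours and listed relatives, with examples chosen after their values were seen, and the 2 genes with the highest Pearson r for each. Some items that these rules name are not reported here. Alternatives were the limits read as UMIs, doublets kept, TMM scaling (edgeR 4.0.16), another clustering seed, each hashtag left out, B cells gated by Cd79a and Ms4a1, no B marker outside B cells, and other UMI minimums.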

Additional observations from a re-analysis of the deposited data

How the results depend on the processing

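In B cell-like cells, all 6 genes kept the direction of their log2 ratio of B6.SLE123 to control under every alternative tried. With the cell limits read as UMIs, Gm42031 was at 2.68 and the bound of Htatip2 at -6.27 from 254 control UMIs, and 37 genes were higher by 8-fold or more. With at least 20 UMIs, 112 genes were higher. With at least 1 UMI, 40 genes were lower and 144 higher. Leaving out each hashtag population in turn gave 2.64 to 3.00 for Gm42031, -8.46 to -6.56 for Ccdc180, -8.36 to -6.43 for Eps8l1, -8.67 to -7.67 for Gm19951, -7.12 to -6.78 for Htatip2 and 5.18 to 7.09 for Nectin2. For Ccdc180, Eps8l1 and Nectin2 the end nearest 0 is a bound, reached without the population that holds the single UMI (B6.SLE123 C0304, B6.SLE123 C0303 and control C0303). Values near 0 changed sign: the Ang II to control ratio of Eps8l1 was -0.06 without Ang II C0304, and the Nectin2 ratio outside the B lineage -0.49 in cells with no UMI of Cd79a, Cd79b or Ms4a1 (an alternative chosen after seeing the data). Of 419 alternative values over all contrasts, 388 stayed within the counting interval or, for counts of genes, within 1.5 times. No paired analysis was possible because each group is 1 library and the hashtags are not matched across libraries. Depth limits the classes outside the B lineage, where a few UMIs decide a ratio.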
